A study of Mus musculus with 8 samples.

Results

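The NF-kB pathway was followed through 10 of the 40840 genes measured in primary myofibroblastic hepatic stellate cells (pMF-HSCs). They were chosen by name. They comprise the 5 genes for the transcription factor subunits (Nfkb1, Nfkb2, Rel, Rela and Relb) and 5 genes for inhibitors or modulators that NF-kB itself can switch on (Nfkbia, Nfkbie, Nfkbiz, Tnfaip3 and Bcl3). Hepatic stellate cells store vitamin A in the liver and become matrix-producing myofibroblasts when grown on plastic. The cells came from wild-type male C57BL/6J mice aged 15 to 18 weeks and carried no engineered allele. After 7 days in culture they received either the DMSO vehicle (control, n = 4) or OSMI-1 at 50 µM (OGTi, n = 4), each for 24 h. OSMI-1 blocks O-GlcNAc transferase (OGT), the enzyme that attaches the sugar O-GlcNAc to proteins of the nucleus and cytoplasm. A control and an OGTi culture of the same replicate number form a pair, and the 4 replicates are described as biological.

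NF-kB is a dimer of Rel-family proteins. In resting cells it is held in the cytoplasm by IkB proteins, and the IkB kinases (IKK) release it by marking IkB for destruction. The released dimer binds kappaB sites in DNA and induces cytokines and adhesion molecules together with its own inhibitors, which closes a negative feedback loop. In liver stellate cells the pathway is known for driving chemokine and cytokine production and for survival of the activated cell. Release and entry into the nucleus act on proteins and were not measured by the transcript levels given here.

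Libraries held 30068876 to 37372420 counts. Expression is given as scaled counts, which are counts corrected for library size by the TMM method. Treatment differences are log2 fold changes of OGTi over control with their standard error (SE), from edgeR's quasi-likelihood test with the replicate number as a block. A gene was called at a Benjamini-Hochberg adjusted p of at most 0.05 over the 19963 genes tested. OGTi replicate 1 stood apart from the other OGTi libraries. Genes above a minimum mean scaled count were used to compare each library with the others of its group. With these genes split by length into 5 equal classes, the shortest class lay higher in OGTi replicate 1 by a median of 0.59 (log2). The longest class lay lower there, at -0.48. Tnfaip3 was among 423 genes that this library held at a level 4-fold or more under its group, and control replicate 4 held 378 such genes. In OGTi replicate 4, 23746 genes were detected, against 19035 to 20293 in the other 7 libraries, and 153 genes lay 4-fold or more above its group. Stellate cell markers were abundant in every library, with a summed level of 2253 to 4222 TPM (an abundance corrected for gene length and depth) in control and 2050 to 3320 TPM in OGTi. Of these 10 markers, 2 were lower after OGTi. Ogt itself, the gene for the drug's target enzyme, showed a log2 fold change of -0.16 ± 0.24 (adjusted p = 0.714, edgeR). The drug acts on the enzyme and not on its gene, and this value does not check the treatment.

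Promoter sequence is shown because several of these genes are known to be induced by the factor they restrain. The kappaB consensus, a 10-base motif, was searched on both strands of RefSeq promoter windows, which reach from 250 bases before a gene's start to 50 bases after it. A window was given for 7 of the 10 genes, all but Nfkb1, Relb and Nfkbiz. At least 1 match was present in 6 of these 7 genes (Nfkbia, Tnfaip3, Nfkbie, Rel, Nfkb2 and Bcl3), beside 5.14% of 27025 genes with a window. Windows of Rela held no match, which says only that these letters are not in this window. A match is a description of letters and not proof of binding. The 250 bases before the start of Nfkbia lie at chr12:55539433-55539682 on the minus strand (GRCm39) and overlap no annotated exon. The capitals mark the kappaB match, which lies 29 to 20 bases before the start:
Nfkbia: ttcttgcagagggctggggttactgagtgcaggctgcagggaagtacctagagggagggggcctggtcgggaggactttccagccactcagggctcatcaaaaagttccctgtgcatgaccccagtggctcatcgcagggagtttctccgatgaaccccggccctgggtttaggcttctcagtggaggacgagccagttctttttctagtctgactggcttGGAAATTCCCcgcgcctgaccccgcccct

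The windows of the other genes shown overlap sequence that GENCODE annotates as exon of the same gene, so at most 30 bases around a match are shown, again 5′ to 3′ on the gene's own strand with the match in capitals. Tnfaip3 had 2 matches, 125 to 116 bases before the start (chr10:18891264-18891293, minus strand) and 12 to 3 bases before it (chr10:18891159-18891180). The match of Nfkbie lay 106 to 97 bases before the start (chr17:45866510-45866539, plus strand). Those of Rel (chr11:23721042-23721070, minus strand) and of the first window of Nfkb2 (chr19:46293128-46293156, plus strand) are 11-base runs in which matches on both strands overlap. That Nfkb2 window held a further match 11 to 2 bases before the start (chr19:46293155-46293175). All coordinates are on GRCm39.
Tnfaip3 distal: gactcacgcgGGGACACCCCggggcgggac
Tnfaip3 proximal: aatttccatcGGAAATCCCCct
Nfkbie: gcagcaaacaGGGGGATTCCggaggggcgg
Rel: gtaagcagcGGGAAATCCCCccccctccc
Nfkb2 distal: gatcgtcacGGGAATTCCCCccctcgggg
Nfkb2 proximal: ggggccgaaaGGGGCTTTCCc

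Among the 10 genes 1 was called after OGTi, Nfkbia, which rose, and 0 were called lower by edgeR, beside 18.4% called of all genes tested (8.13% higher and 10.2% lower). At an unadjusted p under 0.05 (edgeR), 1 further gene passed, beside 2682 further genes among the 19963 tested. This was Tnfaip3, with a log2 fold change of -1.57. It had lower values in every OGTi library than in any control library and was called by DESeq2, which called 2 of the 10 (24.2% of all genes). Log2 fold changes were above 0 for 7 genes and below 0 for 3 (for 10023 of the 19963 genes tested they were above 0), with a median of 0.40 beside 0.01 over all genes tested. By pair, this median was 0.14, 0.29, 0.39 and 0.51 in pairs 1 to 4. Over all pairs it was 0.21 with libraries scaled by their totals alone and 0.090 with limma on TPM, where the median over all genes was -0.19 and -0.10. It was 0.21 without replicate 4. All 4 pairs moved the same way for 4 of the 10 genes, beside 40.9% of all genes. These were Rel, Nfkbia and Nfkbie, higher in OGTi (19.4% of all genes), and Tnfaip3, lower in OGTi (21.5% of all genes). In scaled counts, groups without overlap were found for 1 of the 10, Tnfaip3, beside 23.5% of all genes. In bulk RNA, fewer cells of a type and less RNA per cell cannot be told apart.

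**Figure D1:**
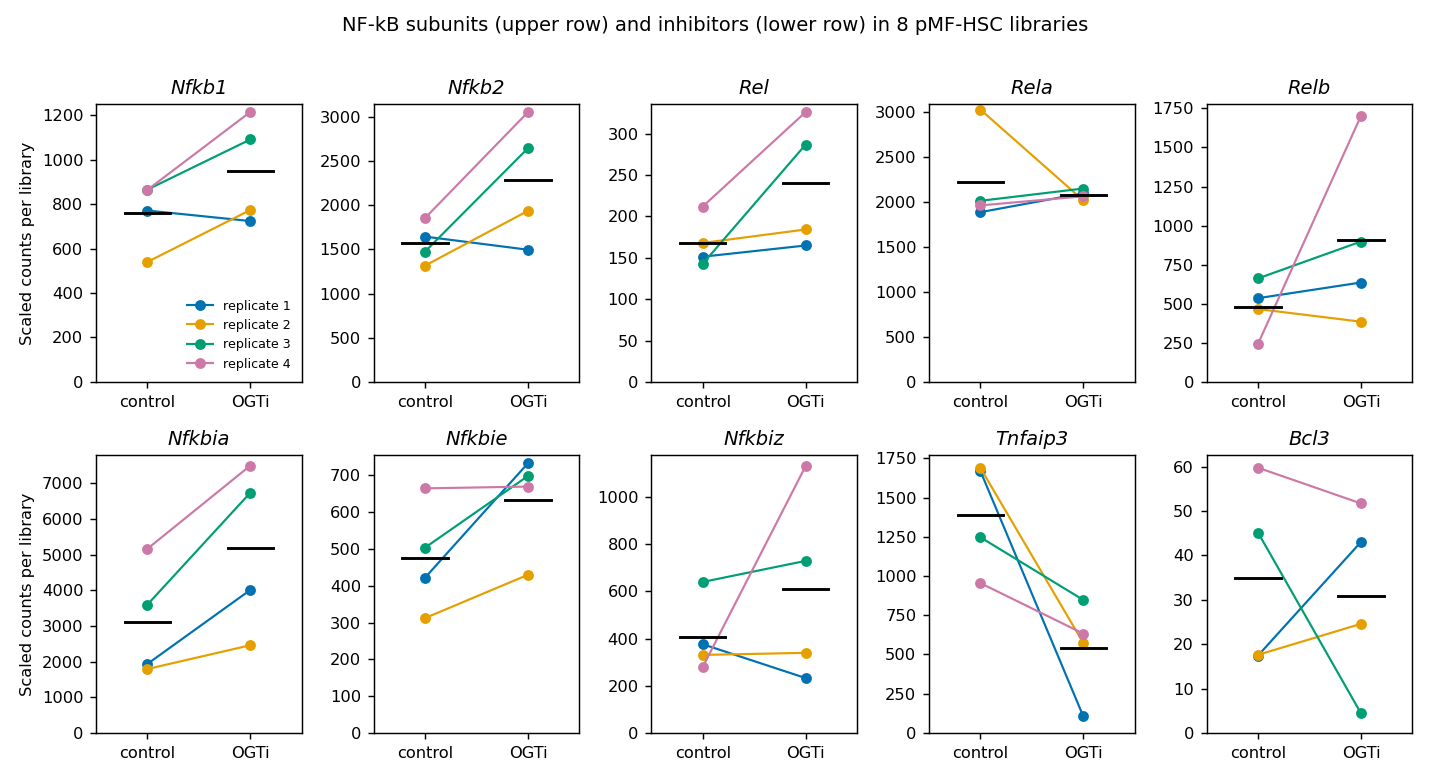
Scaled counts (vertical axes, linear, from 0) of the 10 genes in the 4 control and 4 OGTi libraries. Each line joins the control and the OGTi library of 1 replicate, and black bars are group means. All 4 lines of Nfkbia point up and all 4 of Tnfaip3 point down, while Relb and Nfkbiz are steepest in replicate 4.

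The 5 subunits were examined first. Rela encodes p65, the subunit with a strong activation domain that pairs with p50 in the best-known dimer (chr19:5687493-5698161, plus strand). Control replicates 1 to 4 held 1888, 3029, 2014 and 1963 scaled counts. The OGTi replicates held 2098, 2018, 2151 and 2064. Control replicate 2 was thus far above the other controls, and the other 7 libraries lay close together. With all pairs its log2 fold change was -0.07 ± 0.22 (adjusted p = 0.877, edgeR), and it was 0.13 without replicate 2.

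Nfkb1 encodes p105, the precursor of p50, which by itself lacks an activation domain (chr3:135290264-135397742, minus strand). Scaled counts were 771, 539.9, 866 and 864 in control and 724, 774, 1091 and 1215 in OGTi. They were higher in OGTi in 3 of 4 pairs and the groups overlapped. For Nfkb1 the log2 fold change was 0.31 ± 0.22 (adjusted p = 0.364, edgeR). It was 0.57 with each library's trend on gene length removed, which passed (adjusted p = 0.0409, edgeR), and -0.0098 with limma on TPM (adjusted p = 0.979). Nfkb2 encodes p100, the precursor of p52 and the substrate of the non-canonical pathway (chr19:46292759-46303812, plus strand). Its scaled counts were 1644, 1316, 1474 and 1854 in control and 1495, 1935, 2644 and 3052 in OGTi. Pair 1 moved down slightly, at -0.14 on the log2 scale, and pairs 2 to 4 moved up by 0.56, 0.84 and 0.72. With all 4 pairs the log2 fold change was 0.50 ± 0.23 and did not pass (adjusted p = 0.167, edgeR). Without replicate 1, the replicate whose OGTi library stood apart, it was 0.71 and passed (adjusted p = 0.0341, edgeR), as did 0.73 with the length trend removed (adjusted p = 0.0174, edgeR).

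Rel encodes c-Rel, a subunit best known from lymphocytes and macrophages (chr11:23686847-23721264, minus strand). Its scaled counts were 151, 168, 143 and 212 in control and 165, 184, 287 and 326 in OGTi. All 4 pairs were higher in OGTi, by only 0.12 and 0.13 in pairs 1 and 2 and by 1.00 and 0.62 in pairs 3 and 4 (log2). For Rel the log2 fold change of 0.47 ± 0.26 did not pass (adjusted p = 0.251, edgeR). Relb encodes the partner of p52 in the non-canonical pathway (chr7:19339017-19363425, minus strand). It held 536, 466, 662 and 244 scaled counts in control and 636, 385, 898 and 1702 in OGTi. Its difference lay mostly in replicate 4, which had both the lowest control and the highest OGTi value, a log2 ratio of 2.80 against -0.27 to 0.44 in the other pairs. Relb had a log2 fold change of 0.75 ± 0.44 with all pairs (adjusted p = 0.284, edgeR) and 0.15 without replicate 4 (adjusted p = 0.770, edgeR). None of the 5 subunits passed the test with all pairs and no length correction.

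**Figure D2:**
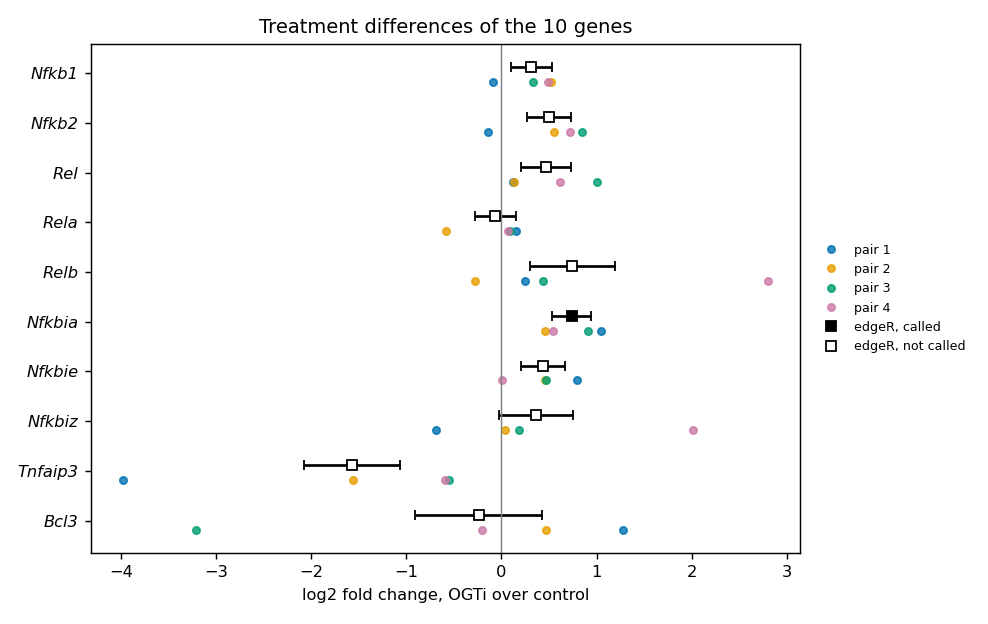
Log2 fold changes of OGTi over control (horizontal axis) for the 10 genes. Squares and bars give the edgeR estimate ± SE, filled for the gene called, and circles give the log2 ratio of each of the 4 pairs. Nfkbia is the filled square at 0.74, and the estimate of Tnfaip3, at -1.57, spans pair ratios from -3.98 to -0.56.

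The 5 inhibitors differed more among themselves. Nfkbia encodes IkBα, the inhibitor that is destroyed on activation and made again on the order of NF-kB itself (chr12:55535332-55539432, minus strand). It held 1935, 1793, 3599 and 5165 scaled counts in control replicates 1 to 4. The OGTi replicates held 4011, 2460.1, 6740.1 and 7501. The groups overlapped, because replicates 3 and 4 were high and replicates 1 and 2 low in both groups, but every OGTi library exceeded its own control. Pair log2 ratios were 1.05, 0.46, 0.91 and 0.54. The fitted log2 fold change was 0.74 ± 0.20 (adjusted p = 0.0297, edgeR), with adjusted p-values of 0.00252 to 0.256 over the 12 alternatives. The call rested on the pairing, since without the replicate block the value was 0.73 with an adjusted p of 0.256 (edgeR). Without replicate 3 it was 0.68 (adjusted p = 0.154, edgeR) and without replicate 4 it was 0.82 (adjusted p = 0.0595, edgeR). On TPM it was 0.41 (adjusted p = 0.0631, limma).

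Summed macrophage markers, a cell type that also expresses Nfkbia, were 50.2 to 194.5 TPM in control and 90.2 to 248.2 TPM in OGTi. Like Nfkbia, the sum was higher in OGTi in all 4 pairs, and it was highest in replicate 3 of each group. Of these 10 markers 1 rose, Cd68. In control replicates 1 and 2 and OGTi replicate 1, the markers Adgre1, Marco, Cd5l and C1qa were at 0 counts. There Clec4f held 0, 9 and 0 counts, Ptprc 5, 3 and 0 and Tyrobp 3, 1 and 0. Cd68 held 637, 507 and 1776 counts, Csf1r 309, 309 and 237 and Lyz2 257, 517 and 450.0. In replicate 3, control and OGTi held 61 and 47 counts of Adgre1, 8 and 2 of Marco and 244 and 178 of Cd5l. C1qa held 103 and 42 there and Csf1r 529 and 463. Higher there in OGTi were Cd68 (445 and 1064), Lyz2 (2471 and 3252), Tyrobp (102 and 131), Clec4f (13 and 14) and Ptprc (9 and 13). Per the study's methods the cells had been purified on a density gradient and sorted by the autofluorescence of retinol. The part of the macrophage markers in the Nfkbia difference was not tested.

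Tnfaip3 encodes A20, a ubiquitin-editing enzyme that switches off signalling upstream of IKK (chr10:18874201-18891405, minus strand). Control replicates 1 to 4 held 1669, 1689, 1247 and 955 scaled counts. The OGTi replicates held 105, 573, 847 and 633. The highest OGTi library stayed below the lowest control library. The size of the difference varied greatly, with pair log2 ratios of -3.98, -1.56, -0.56 and -0.59. The fitted value of -1.57 ± 0.51 missed the threshold (adjusted p = 0.0575, edgeR), with adjusted p-values of 0.000217 to 0.163 over the 12 alternatives. It passed with DESeq2 (-1.54, adjusted p = 0.00971), with limma on TPM (-1.66, adjusted p = 0.0480) and without replicate 3 (-1.98, adjusted p = 0.0458, edgeR). Without replicate 1 it was -0.90 (adjusted p = 0.0521, edgeR), so the lowest library set much of its size. Tnfaip3 transcripts are long, with an effective length at percentile 72.2 of the genes above a minimum mean scaled count. OGTi replicate 1 was low for long genes. With each library's trend on length removed, the value was -1.35 (adjusted p = 0.0754, edgeR). The part of that trend in the ratio of pair 1 was not tested further.

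Nfkbie encodes IkBε, an IkB that is also induced by NF-kB (chr17:45866585-45874661, plus strand). It held 422, 312, 504 and 665 scaled counts in control and 733, 429.9, 699 and 669.7 in OGTi. Pairs 1 to 3 were higher in OGTi by 0.80, 0.46 and 0.47 and pair 4 by 0.01 (log2). Its log2 fold change of 0.44 ± 0.23 did not pass (adjusted p = 0.223, edgeR). Nfkbiz encodes IkBζ, a nuclear cofactor needed for a subset of NF-kB targets such as Il6 (chr16:55631738-55659262, minus strand). It held 376, 331, 640.0 and 279 scaled counts in control and 232, 339, 729 and 1131 in OGTi. As for Relb, replicate 4, whose OGTi library held the most detected genes, stood out with a log2 ratio of 2.02 against -0.69 to 0.19 in the other pairs. Over all pairs it was 0.36 ± 0.39 (adjusted p = 0.581, edgeR), and it was -0.14 without replicate 4. Bcl3 encodes a nuclear IkB relative that binds p50 and p52 dimers (chr7:19541553-19557570, minus strand). It was the gene with the fewest counts of the 10, with 17.4, 17.6, 45.1 and 59.7 scaled counts in control and 43.0, 24.6, 4.41 and 51.7 in OGTi. Neither group was higher throughout, 2 pairs moved up and 2 down, and the log2 fold change was -0.24 ± 0.67 (adjusted p = 0.853, edgeR).

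Levels of different genes were compared in TPM, which corrects for length. In control cells Nfkbia was the most abundant of the 10, at 113.5 ± 58.8 TPM (SD, n = 4), followed by Rela at 45.7 ± 10.7 and Nfkb2 at 21.6 ± 3.27. Tnfaip3 came next at 16.3 ± 3.97 TPM. Relb, Nfkbie and Nfkb1 followed at 11.1 ± 4.16, 10.7 ± 3.42 and 9.29 ± 1.98 TPM, and Nfkbiz at 5.80 ± 2.39 TPM. Rel (1.14 ± 0.206 TPM) and Bcl3 (1.10 ± 0.671 TPM) were the least abundant. Neighbours in this order had separate ranges over the 4 control libraries in 3 places only, between Nfkbia and Rela, between Rela and Nfkb2, and between Nfkbiz and Rel. Nfkb2 and Tnfaip3, and the run from Tnfaip3 to Nfkbiz, overlapped from one gene to the next.

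The order in OGTi was the same except for Tnfaip3. This gene lay at 5.26 ± 3.05 TPM (SD, n = 4), below Relb, Nfkbie, Nfkb1 and Nfkbiz. Nfkbia again led at 148.8 ± 68.9 TPM, above Rela (34.3 ± 3.56 TPM) with separate ranges. Rela and Nfkb2 (25.4 ± 8.90 TPM) now overlapped. Unlike its scaled counts, Rela TPM did not overlap between the groups (38.31 to 61.45 in control, 29.48 to 38.06 in OGTi). It was lower in OGTi in all 4 pairs. The shares of all genes given above for overlap and for pairs are for scaled counts and not for TPM. In the fit to log2(TPM + 1) the log2 fold change of Rela was -0.38 and did not pass (adjusted p = 0.113, limma), beside a median of -0.10 over all genes tested.

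**Figure D3:**
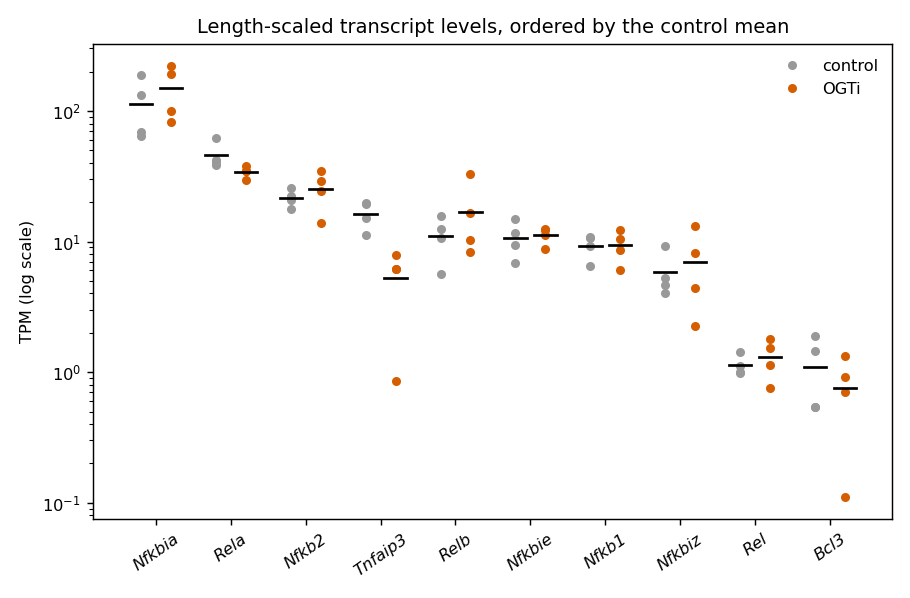
TPM of the 10 genes (vertical axis, log scale) in each of the 4 control (grey) and 4 OGTi (orange) libraries, ordered by the control mean. Black bars are group means. Nfkbia lies highest in both groups, and Tnfaip3 lies above Relb, Nfkbie, Nfkb1 and Nfkbiz by its control mean and below them by its OGTi mean.

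The makeup of the subunit pool was described as a share of summed subunit TPM. Rela took 45.9, 63.0, 46.8 and 48.3% in control and 48.9, 47.4, 37.8 and 29.9% in OGTi. These shares overlapped, and the lowest was OGTi replicate 4, where Relb took 28.1%. Nfkb2 took 24.6% ± 5.26 (SD, n = 4) in control and 28.6% ± 3.82 in OGTi, and Relb 12.5% ± 4.63 and 18.3% ± 7.36. Nfkb1 took 10.6% in both groups. For the inhibitors, the ratio of Nfkbia to Tnfaip3 TPM was 3.55, 3.26, 8.87 and 16.6 in control replicates 1 to 4 and 116.6, 13.2, 24.4 and 36.3 in OGTi replicates 1 to 4. Every OGTi culture was above its own control, but the highest control exceeded the lowest OGTi culture. No test was made of this ratio.

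The rest of the pathway was covered by lists of 93 genes, of which 88 were tested and 23 called, 5 higher and 18 lower, beside the 18.4% of all genes. Over the alternatives the number called ranged from 13 (without replicate 4) to 33 (DESeq2), with 14 without the replicate block or without replicate 3. Among 12 other inhibitors 1 was called. Nfkbib encodes IkBβ, the IkB that is not induced by the factor itself. Its mean was 2049 ± 267 scaled counts (SD, n = 4) in the control group and 3985 ± 881 under OGTi, and the groups did not overlap. Its log2 fold change was 0.94 ± 0.21 (adjusted p = 0.0122, edgeR), and 0.84 without replicate 3 (adjusted p = 0.0888, edgeR). Nfkbia and Nfkbib were thus the IkB genes that passed. Among the 14 genes of the IKK complex and its upstream kinases 0 were called higher and 4 lower, beside 8.13% and 10.2% of all genes. Ikbkb, which encodes the catalytic IKKβ that marks IkBα, fell from a control mean of 2322 ± 227 scaled counts to an OGTi mean of 1063 ± 443. The log2 fold change of Ikbkb was -1.24 ± 0.29 (adjusted p = 0.0160, edgeR), and -1.20 without replicate 4 (adjusted p = 0.0732, edgeR). Chuk, for IKKα, had a log2 fold change of -0.15 ± 0.23 (adjusted p = 0.722, edgeR) and Ikbkg, for the scaffold NEMO, one of -0.03 ± 0.20 (adjusted p = 0.933, edgeR). The signs of both values turned under other settings. Ikbke, an IKK-related kinase, had a log2 fold change of -1.66 and Tab1, an activator of the upstream kinase TAK1, one of -1.13, which lost its call without replicate 4.

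Receptors that feed the pathway were called lower in 6 of 11 cases and higher in 0, beside 10.2% and 8.13% of all genes. Tlr3, the receptor for double-stranded RNA, changed by -2.26 ± 0.43 on the log2 scale (adjusted p = 0.00598, edgeR). Il1rap, the accessory chain of the interleukin-1 receptor, changed by -1.41 and Tlr2, a receptor for bacterial lipoproteins, by -1.33. The calls of Il1rap and Tlr2 were lost without replicate 4 and that of Tlr2 also without replicate 1, and neither held without the replicate block. Tlr3 and Il1rap were lowest in OGTi replicate 1, with 71.7 and 756 scaled counts, and without replicate 1 their log2 fold changes were -1.91 and -1.09. Summed endothelial markers were 1.57 to 3.23 TPM in control and 0.36 to 1.02 TPM in OGTi, with 2 of 8 called lower. Summed cholangiocyte markers were 87.3 to 140.6 TPM and 57.2 to 84.1 TPM, with 1 of 4 called lower and 1 higher. Most of the control counts were of Krt19, which held 1725 to 3029 counts in control and 959 to 1522 in OGTi. Sox9 went the other way, with 35 to 167 counts in control and 348 to 1949 in OGTi. Krt7 held 0 to 81 and 1 to 137 counts, and Epcam 0 to 16 and 3 to 29. The part of these markers in the receptor values was not tested. Of 14 adaptors and ubiquitin ligases 2 were called lower, Traf5 (log2 fold change -0.94) and Birc3 (-0.85), and 0 higher. Neither call held without replicate 1, 2 or 4 or without the replicate block, and that of Birc3 was also lost without replicate 3. Of 10 ligands 6 were tested. Ltb, which encodes lymphotoxin beta, rose (adjusted p = 0.000981, edgeR). Its control libraries held between 0.88 and 2.76 scaled counts and its OGTi libraries between 32.0 and 60.4, so the size of the fold is set by a handful of control reads. Tnfsf13b, for the ligand BAFF, had a log2 fold change of -0.82, a call that was lost without replicate 2, 3 or 4 and without the replicate block, as well as with upper-quartile scaling.

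Of 31 target genes tested, 3 were called higher and 5 lower, beside 8.13% and 10.2% of all genes. Gadd45b, a stress-induced inhibitor of JNK signalling, rose by 2.33 ± 0.27 on the log2 scale, the chemokine gene Ccl7 by 2.13 ± 0.33 and Cxcl1 by 1.15 ± 0.23. Lif, for an interleukin-6 family cytokine, changed by -3.07 ± 0.32, Vcam1, for an adhesion molecule, by -2.57 ± 0.23 and Il6 by -2.27 ± 0.25. Adjusted p-values of these 6 genes ranged from 0.00022 to 0.00739 (edgeR). Cxcl1 alone among them lost its call without the replicate block (0.97, adjusted p = 0.512, edgeR) and without replicate 3. The kappaB match described above was present in 10 of the 22 target genes with a promoter window, beside 5.14% of all genes with one.

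**Figure D4:**
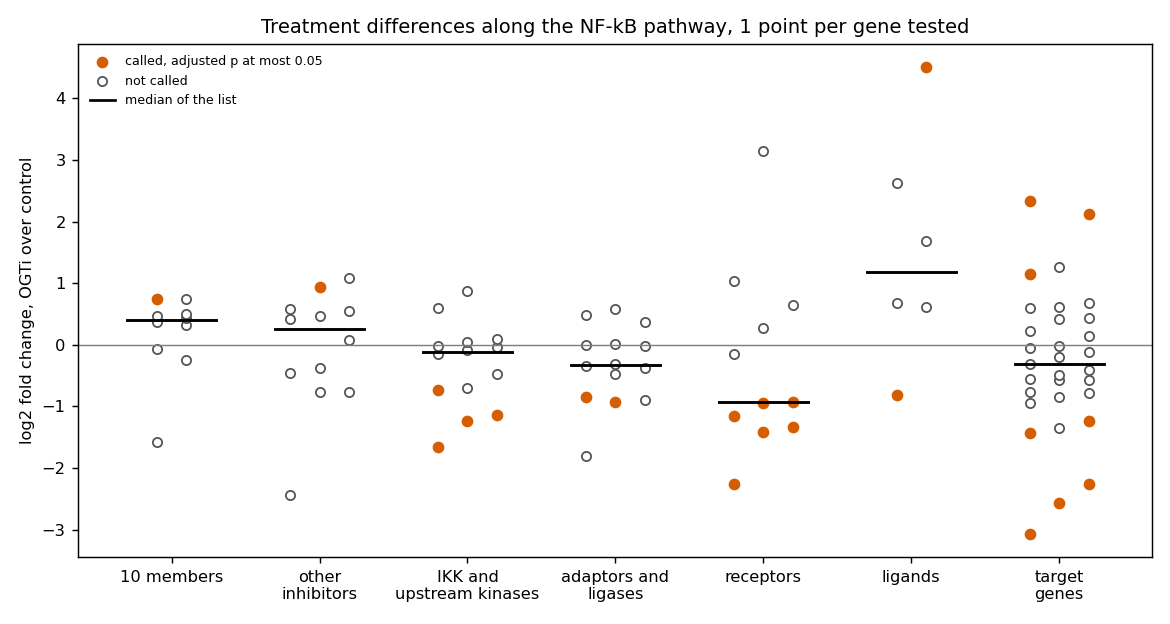
Log2 fold changes of OGTi over control (vertical axis) for the 10 genes and for the 6 other lists of the pathway, with 1 point per gene tested. Filled points were called, and black bars are list medians. The 6 called receptors all lie below 0, while called target genes lie on both sides.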

How the data were processed

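The authors enriched mRNA with oligo-dT, sequenced stranded libraries in pairs of reads and aligned the reads with Bowtie2 2.3.5.1 to GRCm39 (mm39). The deposited tables, 1 per library, hold expected counts that RSEM 1.3.1 estimated per gene and TPM. A deposited table of the authors' own comparison (counts, normalized counts, fold changes and p-values) was not used. Columns of per-sample values left unused numbered 0. Where the sources disagree on the annotation the gene symbols were taken as deposited.

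Expected counts were rounded to whole numbers. The 19963 of 40840 genes reaching 10 counts when all 8 libraries were summed were fitted with edgeR 4.0.16 in R 4.3.3 (TMM scaling, quasi-likelihood F test, replicate number as a block). Benjamini-Hochberg adjustment covered every gene fitted, with a threshold of 0.05. An SE is the log2 fold change divided by the root of F. Pairing follows the study's methods. Deviations from group means correlated at 0.160, 0.224, 0.105 and 0.318 across genes for same-numbered libraries and at -0.312 to 0.208 for others. With the replicate block, p-values measure how far the treatment difference varied between the pairs of cultures. Totals per library were 30068876 to 37372420, so that counting error was small except for Bcl3 and Ltb.

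The genes and lists were chosen with earlier results of these data known. Named genes are all 10 members, up to 3 called genes per direction with the largest changes in each pathway list, Nfkbib, Chuk, Ikbkb, Ikbkg and Ogt. Alternatives were RLE, upper-quartile and total-count scaling, DESeq2 1.42.0, no low-count filter, no replicate block, limma 3.58.1 on log2(TPM + 1), removal of each library's trend on length, and leaving out each replicate pair. Only the main edgeR fit was tried on simulated counts, and the alternatives were not. The simulated counts had no replicate effect, no trend on length and no library standing apart. Promoter windows are RefSeq sequences from a GRCm38 table, located in GRCm39 by exact match. Gene positions are from GENCODE on GRCm39.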

Additional observations from a re-analysis of the deposited data

Results flagged for a closer look

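In 60 groups of 4 values (the 10 genes and the other named genes, in each treatment), 6 had 1 library far from the other 3, where the gap to the nearest value, as a share of the whole range, was over Dixon's critical value. Chance alone gives about 3 such groups. For Rela, control replicate 2 held 3029 scaled counts while the other controls held 1888 to 2014. For Ikbke, OGTi replicate 1 held 45.1 against 157 to 174. For Tnfsf13b, OGTi replicate 4 held 107 against 236 to 259. Control replicate 4 stood apart for 3 genes, with 1973 against 956 to 1106 scaled counts of Gadd45b, 539 against 712 to 729 of Chuk and 4525 against 3642 to 3790.1 of Ikbkg.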

How the results depend on the processing

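The count of the 10 genes called was 1 and became 2 with upper-quartile scaling, DESeq2 or no low-count filter, 0 with no replicate block and 3 with the length trend removed, and ranged from 0 to 2 when a replicate was left out. Nfkbia lost its call with library totals alone (0.54), no replicate block (0.73) and limma on TPM (0.41), and ranged from 0.64 to 0.86 when a replicate was left out. Tnfaip3 gained a call with upper-quartile scaling (-1.46), library totals (-1.76), DESeq2 (-1.54), no filter (-1.58) and limma (-1.66) and without replicate 3 (-1.98), and ranged from -1.98 to -0.90 with a replicate left out. With the length trend removed, Nfkb1 (0.57) and Nfkb2 (0.73) passed, and without replicate 1 Nfkb2 passed (0.71; range 0.38 to 0.71). Signs turned for Nfkb1 with limma (-0.0098), for Rela with upper-quartile scaling (0.062), length removal (0.031) and without replicate 2 (0.13, lowest -0.14), for Nfkbiz without replicate 4 (-0.14, highest 0.73) and for Bcl3 without replicate 3 (0.50, lowest -0.80), none of them called. So did Chuk (0.056 with length removal, 0.034 without replicate 1, lowest -0.20), Ikbkg (0.014 with RLE and DESeq2, 0.092 upper-quartile, 0.19 length removal, 0.076 and 0.025 without replicates 1 and 4, lowest -0.14) and Ogt (0.10 and 0.086 with length removal and without replicate 1, lowest -0.37). Lowest and highest values in parentheses are over the fits with a replicate left out. The causes were not tested.

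The median over the 10 genes was 0.21 with library totals, 0.090 with limma and 0.58 with length removal, and 0.21 to 0.52 with a replicate left out. All genes called numbered 1905 (without replicate 3) to 3124 with a replicate left out, against 3666, and pathway genes 13 to 21 against 23, 14 without the replicate block and up to 33 (DESeq2) with the rest. Of the genes called, 44.3% were higher, but 54.2% with upper-quartile scaling, 30.1% with totals and 25.7% with limma, settings under which the median over all genes lay at 0.13, -0.19 and -0.10 against 0.01. Over all alternatives, the log2 fold changes of the 10 genes kept direction and side of the threshold in 100 cases, gained a call in 9, lost it in 5 and turned sign in 6. Counts were lowest for Bcl3 among the 10 genes.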
